A study of Rattus norvegicus with 12 samples.

Results

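The zinc finger genes followed here are those whose name on the array begins with Zfp, Zkscan, Zscan, Zbtb or Znf. The mRNA decay factor Zfp36 and its l1, l2 and l3 relatives, which share the prefix, were left out. The rule took 411 of the 41012 probes, which stand for 289 of the 33212 gene names: 227 with the prefix Zfp, 38 with Zbtb, 12 with Zscan, 6 with Zkscan and 6 with Znf. It used names and no measured value, but it was chosen with earlier results of these data known. A name is a loose guide to a protein, since Znfx1 is a helicase with another kind of zinc finger and Zbtb8os is named only for its place beside Zbtb8a.

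The cells were PC12, a line from a rat adrenal pheochromocytoma, treated with the neuropeptide PACAP38 at 1e-07 M in serum-containing medium, or left as Control, for 5, 10, 15, 30, 60 or 120 min. At each time point RNA of PC12 cells (n = 6) was pooled per treatment, and both pools were hybridized together on 2 Agilent whole rat genome arrays with the dyes exchanged between them. The paired arrays carry identical RNA, so there is 1 replicate for each time, the folds of the single arrays are printed where an error would be, and differences at 1 time point carry no p-value. The question was which of these genes were lower after PACAP38 at 60 min, and which had returned, remained lower or were higher by 120 min.

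Most proteins of this group carry C2H2 zinc fingers, short loops held by a zinc ion that read DNA letters one after another. Many Zfp and Zkscan proteins pair their fingers with a KRAB domain, which recruits the corepressor Trim28 and with it the histone methyltransferase Setdb1, and silences transposable elements among other targets. The Zbtb proteins carry a BTB/POZ domain instead, which binds corepressors such as Ncor1 and Bcor. KRAB genes lie in clusters of near copies along mammalian chromosomes.

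On each array 38.4 to 49.6% of spots stood well above background for the control RNA and 39.8 to 48.9% for the PACAP38 RNA, and no spot was saturated. Of the chromaffin markers looked at, Th, Dbh, Ddc, Chga, Chgb, Slc18a1, Phox2a and Hand2 stood well above background for control RNA on 12 of 12 arrays and Gata3 on 9. Of the markers of other cells, Aif1, Alb, Cyp11b1, Star, Pecam1 and Ptprc were above it on 0 arrays, Gfap on 4 and Col1a1 on 12. Acta2 was not analysed here. The arrays measure RNA in bulk, so fewer cells that use a gene and less of its RNA per cell cannot be told apart.

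A gene was called measured at a time point when at least 1 of the 2 RNAs was well above background on each of the 2 arrays, and it was counted as lower or higher with a fold of at most 0.5 or at least 2 and a p-value of the spot below 0.01, each in the same direction on both arrays. The fold is PACAP38 over control, as the geometric mean of both arrays, on the brightest probe of a gene. Of the 289 genes, 198 were measured at 1 or more time points, 170 at all 6, and 91 at none. The mean processed signal of the 198 measured genes had a median of 234 and ran from 14.0 to 17400 intensity units, so many of these transcripts gave dim spots.

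No zinc finger gene was counted at 5, 10, 15 or 30 min, among 186, 179, 183 and 176 measured. At 30 min 0.295% of all measured genes were counted as lower and 0.656% as higher. At 60 min 26 of 193 measured zinc finger genes (13.5%) were lower and 3 (1.55%) were higher, where 0.916% of all 15400 measured genes were lower and 1.78% higher. At 120 min 28 of 184 (15.2%) were lower and 5 (2.72%) higher, against 3.81% and 4.14% of all 14606 measured genes. In all, 50 zinc finger genes were counted at 60 or 120 min. On the processed signals the group's share of lower genes lay above that of all genes at both times, and its share of higher genes did not. With the other scalings given below this held for lower genes at 60 min but not at 120 min.

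The median log2 fold of the measured zinc finger genes was 0.023 at both 5 and 10 min, 0.005 after 15 min and -0.079 after 30 min. It was -0.428 at 60 min (-0.45 where Cy5 carried PACAP38, -0.473 where Cy3 did) and -0.461 at 120 min (-0.459 and -0.462). The median over all measured genes was -0.028 at 60 min and -0.041 at 120 min, and 56.7% and 53.9% of them lay below 0. At 60 min 169 of the 193 genes (87.6%) lay below 0, 153 of them on both arrays, and at 120 min 140 of 184 (76.1%), 122 of them on both. The share below 0 was therefore smaller at 120 min although the median was about the same, since the upper quartile moved from -0.16 to -0.02 while the lower one moved from -0.87 to -0.94.

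**Figure D1:**
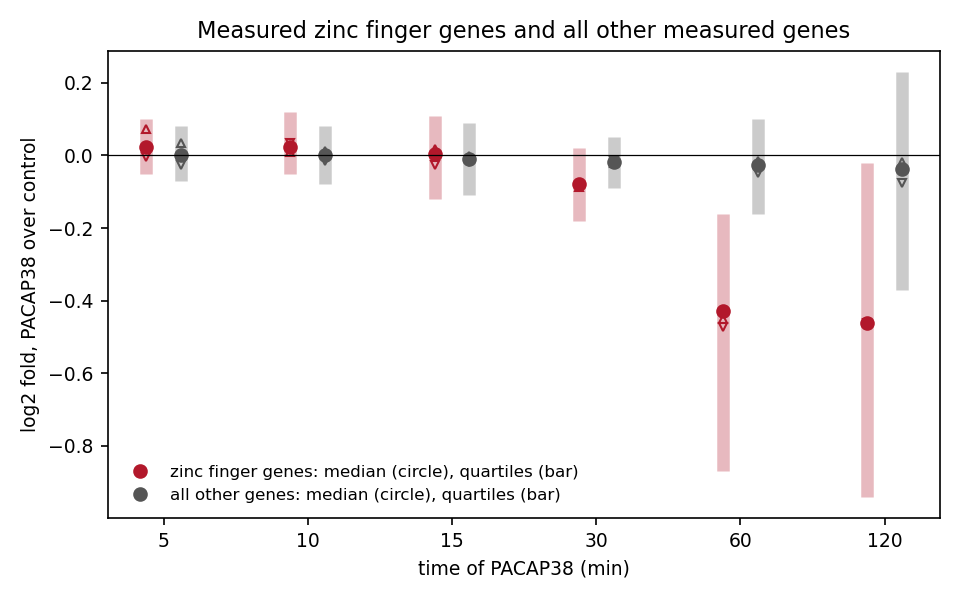
Log2 fold of PACAP38 over control (y axis) by time in minutes (x axis, time points evenly spaced) for the measured zinc finger genes (red) and all other measured genes (grey). Circles are medians over genes, bars run between the quartiles, and open triangles are the medians of the single arrays (point up, PACAP38 in Cy5; point down, in Cy3); the zinc finger medians lie near 0 up to 15 min and at -0.428 and -0.461 at 60 and 120 min.

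How far the arrays of a time point bear each other out differed with time. After turning each array by its dyes, the log2 folds of the measured zinc finger genes on the swapped arrays had a Pearson correlation across genes of -0.41, -0.47, -0.34 and 0 in time order up to 30 min, and of 0.73 at 60 min and 0.83 at 120 min. Up to 15 min the spread between genes thus ran more with the dye than with the treatment, and single genes are not ordered at those times. Genes are not independent replicates, so these values describe the arrays only.

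The decrease at 60 min was not confined to dim spots. Among zinc finger genes with a mean signal under 100, 5 of 53 measured (9.43%) were lower, against 1.05% of all genes in that range. Between 100 and 500 it was 12 of 75 (16%) against 1.6%, and above 500 it was 9 of 65 (13.8%) against 0.407%. At 120 min the same ranges gave 9.09, 18.7 and 15.4% of zinc finger genes against 1.88, 5.43 and 4.0% of all genes. These ranges were chosen after seeing the data.

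The size of the folds differed with another background correction and dye normalization, changed together. With normexp (offset 50) and loess, all 26 genes lower at 60 min and all 28 lower at 120 min still lay below 0, but 6 and 1 of them passed the 2-fold limit, and 2 and 1 where loess was replaced by median centring. Of the genes counted as higher, 0 of 3 passed at 60 min under either, and 3 and 1 of 5 at 120 min. The group's median log2 fold was then -0.167 at 60 min and -0.177 at 120 min with loess, and -0.168 and -0.287 with median centring, where that of all genes at 120 min was -0.123. At 60 min 6 of 193 zinc finger genes (3.11%) were counted as lower under loess against 0.0844% of all genes, but at 120 min 1 (0.543%) against 0.808%. With median centring the shares were 1.04% against 0.026% at 60 min and 0.543% against 0.719% at 120 min. The counts and fold sizes given from here on are those of the processed signals.

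**Figure D2:**
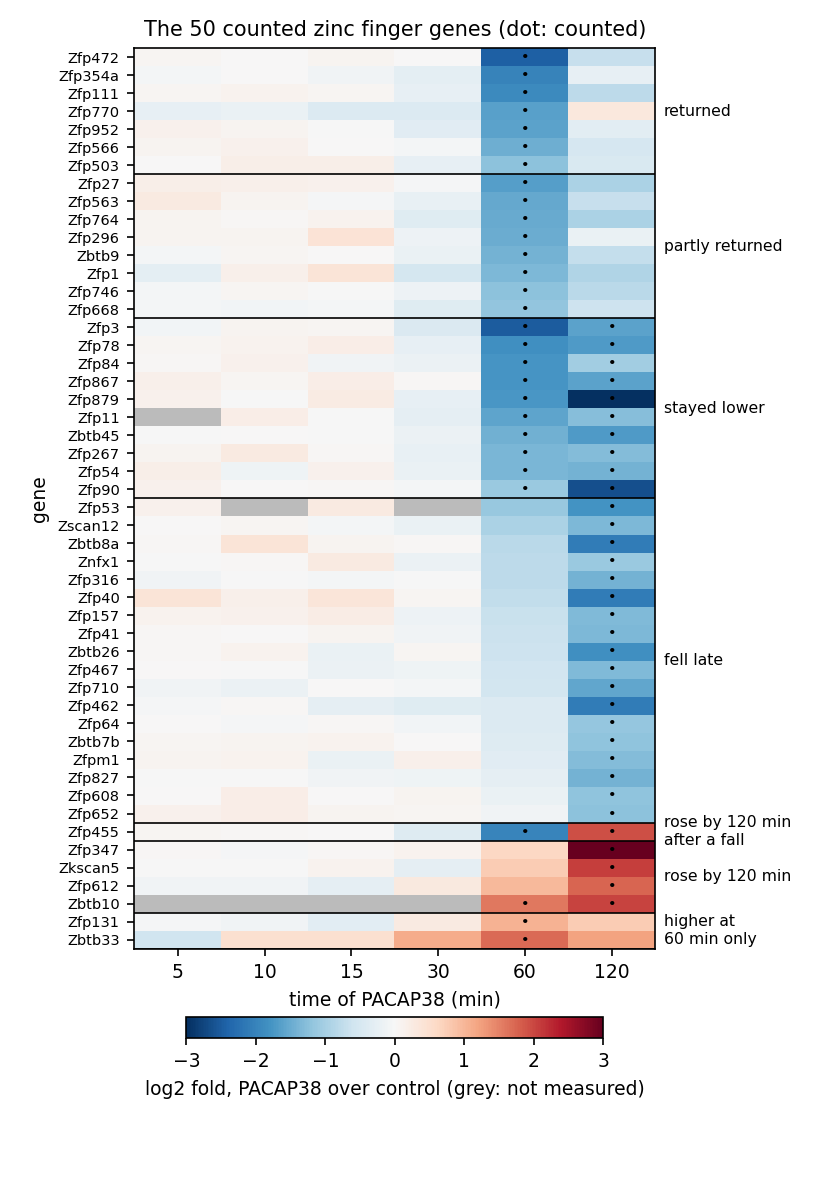
Log2 fold of PACAP38 over control (colour) of the 50 counted zinc finger genes (rows) at each time in minutes (columns), with a dot where a gene was counted and grey where it was not measured. Colours end at -3 and 3, folds that are only bounds are drawn as measured, and the rows are grouped by class; the columns up to 30 min hold no dot.

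The 26 genes lower at 60 min fell into 4 classes by what followed. A gene had returned when it was no longer counted at 120 min and its log2 fold on each array was above 0.5 times that of 60 min. Zfp111, Zfp354a, Zfp472, Zfp503, Zfp566, Zfp770 and Zfp952 had returned, 7 of 26 (26.9%), where 18.4% of all 141 genes lower at 60 min had. Another 8, Zbtb9, Zfp1, Zfp27, Zfp296, Zfp563, Zfp668, Zfp746 and Zfp764, were no longer counted but short of that rule (30.8%, against 38.3% of all genes lower at 60 min), so that the share no longer counted was much the same in both. The 10 genes Zbtb45, Zfp11, Zfp267, Zfp3, Zfp54, Zfp78, Zfp84, Zfp867, Zfp879 and Zfp90 were lower at both times (38.5%), against 40.4% of all genes lower at 60 min. The last of the 26, Zfp455, was higher at 120 min.

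The genes that had returned went from a median fold of 0.846 at 30 min to 0.325 at 60 min and 0.726 at 120 min. Zfp472 (NM_182823, chromosome 7, 13660903 to 13660962 on rn4) stood at 1.01 at 30 min (1.06 with PACAP38 in Cy5 and 0.953 in Cy3). At 60 min its fold was 0.182 (0.217 and 0.153), and at 120 min 0.623 (0.613 and 0.633). Both arrays placed it lowest at 60 min, with no overlap between the folds of 60 min and those of any other time point.

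Zfp354a (NM_052798, chromosome 10, 36665557 to 36665616), the KRAB protein Kid-1, was first described in rat kidney. Its folds from 5 to 15 min were 0.950 (1.09 and 0.826), 1.00 (1.05 and 0.954) and 0.932 (0.916 and 0.948), and at 30 min 0.818 (0.772 and 0.867). It was at 0.249 at 60 min (0.247 and 0.252) and at 0.841 at 120 min (0.807 and 0.877). It passed the 2-fold limit at 60 min alone, while both arrays also lay below 1 at 15, 30 and 120 min.

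Zfp770, a gene of the same class, was at 0.325 at 60 min (0.306 and 0.345) and at 1.25 at 120 min (1.21 and 1.29), the only one of the 7 with a fold above 1 at 120 min. Zfp952 went from 0.328 (0.396 and 0.271) to 0.807 (0.762 and 0.854). Zfp111 went from 0.268 (0.254 and 0.282) to 0.577 (0.552 and 0.603). Zfp503, known as Nolz1, a repressor of neural and limb development, went from 0.426 (0.430 and 0.421) to 0.726 (0.660 and 0.797).

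The 250 bases before the annotated start of Zfp472 (chr7:12724877-12725126, plus strand, build GRCr8, from RefSeq) and of Zfp354a (chr10:35897013-35897262, plus strand) are shown as those of the members with the deepest decrease that had returned. They are in lower case throughout, since neither holds the letters of the cAMP response element core, AP-1, Egr, ETS or NRF1 described further on.
Zfp472: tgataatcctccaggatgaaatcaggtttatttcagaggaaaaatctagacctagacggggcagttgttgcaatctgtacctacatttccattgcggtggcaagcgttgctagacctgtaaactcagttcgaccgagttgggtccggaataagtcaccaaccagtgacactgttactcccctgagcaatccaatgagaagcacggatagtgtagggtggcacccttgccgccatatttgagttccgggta
Zfp354a: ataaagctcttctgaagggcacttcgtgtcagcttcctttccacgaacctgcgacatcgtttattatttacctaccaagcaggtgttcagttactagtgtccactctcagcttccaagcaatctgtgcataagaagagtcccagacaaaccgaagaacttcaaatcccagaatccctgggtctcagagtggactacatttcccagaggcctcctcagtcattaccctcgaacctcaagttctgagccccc

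Among the genes that were partly back, Zfp27 went from 0.318 at 60 min (0.294 and 0.342) to 0.516 at 120 min (0.486 and 0.548). Zfp746, the parkin substrate PARIS, which represses Ppargc1a, went from 0.429 (0.436 and 0.423) to 0.575 (0.579 and 0.571). Zfp296 was at 0.359 at 60 min (0.454 and 0.283) and at 0.872 at 120 min, but there the arrays lay on either side of 1 (1.88 and 0.405). At 60 min its RNA with PACAP38 was well above background on 1 of 2 arrays only.

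The genes that remained lower had a median fold of 0.316 at 60 min and 0.327 at 120 min. Zfp3 (NM_001109034, chromosome 10, 57666011 to 57666070) had the smallest fold of the group at 60 min, 0.177 (0.175 and 0.178), after 0.739 at 30 min (0.734 and 0.743). At 120 min it was at 0.327 (0.323 and 0.331), nearer to the control on both arrays but still counted. Zfp84 likewise went from 0.291 (0.292 and 0.290) to 0.481 (0.470 and 0.493).

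Zfp78 was at 0.278 at 60 min (0.223 and 0.348) and at 0.305 at 120 min (0.337 and 0.275), and Zfp867 at 0.290 (0.242 and 0.349) and 0.327 (0.254 and 0.420). The folds of the single arrays of each gene overlap between 60 and 120 min. Zbtb45 was at 0.370 (0.345 and 0.398) and 0.308 (0.300 and 0.316). On the brightest probes of these 3 genes the decrease of 60 min was still there at 120 min. A dimmer probe of Zfp78 was at 0.473 at 60 min (0.301 and 0.742) and 0.544 at 120 min (0.386 and 0.766), and was not counted at these times.

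Zfp879 and Zfp90 went lower still between 60 and 120 min. Zfp879 (NM_001134600, chromosome 10, 36402741 to 36402800) was at 0.299 at 60 min (0.370 and 0.242). At 120 min its RNA with PACAP38 was well above background on neither array, so it was at least 6.12-fold lower. Such a bound divides the mean of the bright RNA by the lowest signal of any probe well above background, or by the dim spot's own signal if that is higher, per channel after Aquantile normalization. Zfp90 (NM_001025765, chromosome 19, 36282874 to 36282933) went from 0.463 (0.470 and 0.455) to 0.162 (0.141 and 0.186), with PACAP38 well above background on 1 of 2 arrays at 120 min, so the fold of the other array is itself only a bound. Under normexp and loess both were above the limit at 120 min, with folds of 0.687 and 0.646.

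The bases before the start of Zfp90 (chr19:51231644-51231893, plus strand, GRCr8) are shown as those of a gene lower at both times with one of the smallest folds at 120 min, and hold none of those letters either.
Zfp90: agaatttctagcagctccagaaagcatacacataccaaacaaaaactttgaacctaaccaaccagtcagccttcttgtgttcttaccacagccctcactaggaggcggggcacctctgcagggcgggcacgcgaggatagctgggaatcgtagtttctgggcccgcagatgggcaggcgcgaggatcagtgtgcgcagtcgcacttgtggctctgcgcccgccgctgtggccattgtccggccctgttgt

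A further 18 genes were counted as lower at 120 min only, as were 500 of all 14606 genes measured there: Zbtb7b, Zbtb8a, Zbtb26, Zfp40, Zfp41, Zfp53, Zfp64, Zfp157, Zfp316, Zfp462, Zfp467, Zfp608, Zfp652, Zfp710, Zfp827, Zfpm1, Znfx1 and Zscan12. Their folds at 60 min already ran from 0.455 to 0.934, with a median of 0.657, and at 120 min from 0.233 to 0.459, with a median of 0.394. Each of the 18 was thus below 1 at 60 min without passing the limit there, where 87.6% of all measured zinc finger genes were below 1.

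Zbtb8a was at 0.570 at 60 min (0.575 and 0.565) and at 0.235 at 120 min (0.268 and 0.206). Zbtb26 went from 0.645 (0.640 and 0.649) to 0.282 (0.264 and 0.300). Zfp462, a chromatin protein of neural development, went from 0.748 (0.882 and 0.634) to 0.233 (0.307 and 0.177), with PACAP38 above background on 1 of 2 arrays. In each of these the folds of 120 min lay below those of 60 min on both arrays.

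Zfp40 was at 0.604 at 60 min (0.604 and 0.605) and at least 4.07-fold lower at 120 min, where its RNA with PACAP38 was above background on neither array. Zfp53 went from 0.455 (0.535 and 0.387) to 0.287 (0.254 and 0.324). Zfpm1, known as FOG1, a cofactor of GATA factors, went from 0.788 (0.778 and 0.797) to 0.410 (0.428 and 0.392). Zbtb7b, known as ThPOK, a regulator of T cell lineage, went from 0.766 (0.817 and 0.719) to 0.432 (0.409 and 0.457). Of the 28 genes lower at 120 min, 7 had PACAP38 well above background on fewer than 2 arrays, against 1 of 26 at 60 min.

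**Figure D3:**
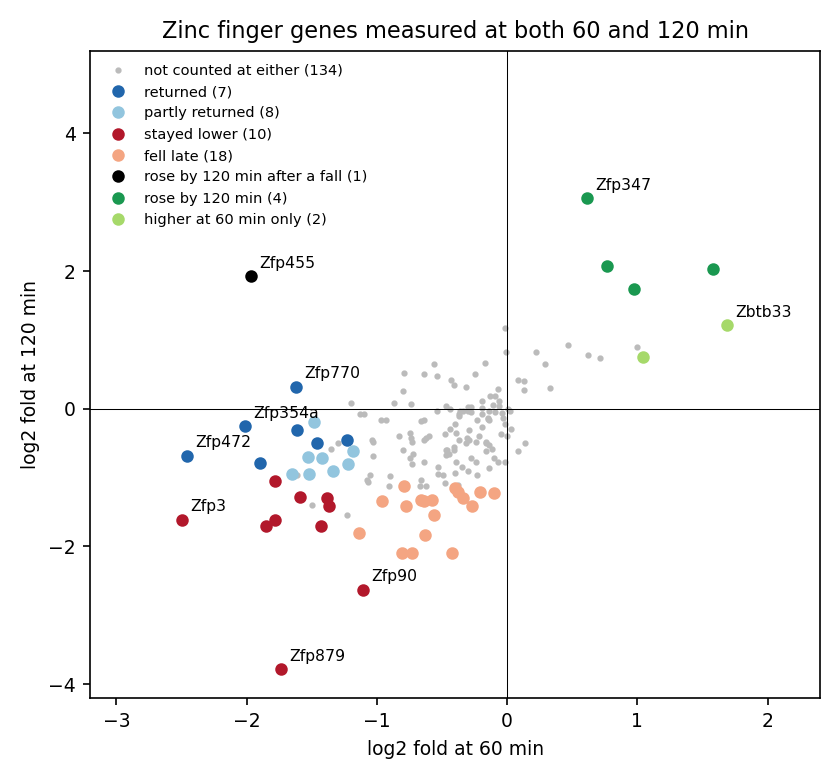
Log2 fold at 60 min (x axis) and at 120 min (y axis) of each zinc finger gene measured at both times, coloured by class with the number of genes in brackets; folds that are only bounds are drawn as measured. Genes that had returned lie to the left and, on the y axis, between log2 folds of -0.79 and 0.32, those lower only at 120 min lie below and near the middle, and Zfp455 lies alone at upper left, at -1.97 and 1.93.

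Zfp455 (NM_173314, chromosome 2, 86210398 to 86210457) changed direction between the last 2 time points. Its fold started at 1.04 (1.26 and 0.860) after 5 min, then was 1.02 (0.968 and 1.07) after 10 min, 1.00 (1.07 and 0.939) after 15 min and 0.762 (0.685 and 0.849) after 30 min. It was 0.255 at 60 min (0.318 and 0.205) and 3.82 at 120 min (3.58 and 4.07). Both RNAs were well above background on all 4 arrays of 60 and 120 min. Among the zinc finger genes it was the only one counted in both directions, and it rests on 1 probe. Under normexp and loess its folds were 0.662 and 2.26, on the same sides of 1. Its upstream bases (chr2:86426714-86426963, plus strand, GRCr8) hold the AP-1 letters near their far end and the ETS letters, on the opposite strand, near the start, both in capitals.
Zfp455: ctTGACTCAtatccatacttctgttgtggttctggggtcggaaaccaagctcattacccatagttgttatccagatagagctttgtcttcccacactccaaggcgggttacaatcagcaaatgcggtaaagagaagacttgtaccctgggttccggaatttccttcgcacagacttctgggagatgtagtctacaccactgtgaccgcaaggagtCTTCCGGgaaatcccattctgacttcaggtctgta

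Higher zinc finger genes were few. Zfp347 (NM_133390, chromosome 7, 8940092 to 8940151) had the largest fold of the group, 8.34 at 120 min (8.35 and 8.32). At 60 min it was at 1.52 (1.73 and 1.34), and from 5 to 30 min it lay between 0.969 and 1.08. Both arrays gave nearly the same value at 120 min, and under normexp with loess it was 6.27.

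Zkscan5 (NM_001107119, chromosome 12, 9698365 to 9698424) was at 1.71 at 60 min (1.78 and 1.64) and at 4.2 at 120 min (4.53 and 3.89), after 0.833 at 30 min (0.998 and 0.696). Zfp612 (NM_001107428, chromosome 19, 39973085 to 39973144) was at 1.22 (1.25 and 1.20) after 30 min, then at 1.97 (2.04 and 1.90) after 60 min and 3.33 (3.13 and 3.55) after 120 min. On both genes every array gave a larger fold at 120 min than at 60 min.

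Zbtb10 (NM_024489, chromosome 2, 94539374 to 94539433), which binds GC-rich sites that Sp factors also use, was not measured up to 30 min. Its control RNA was well above background on no array, so the PACAP38 RNA was at least 2.54-fold higher after 60 min and at least 3.91-fold after 120 min. Its spots were dim, with a mean signal of 28.0, and normexp with loess gave 1.15 and 1.24.

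Zbtb33 and Zfp131 were counted as higher at 60 min only. Zbtb33 (NM_001109314, chromosome X, 7168119 to 7168178) encodes Kaiso, which binds methylated CpG sites. Its fold reached 2.16 (3.14 and 1.49) after 30 min and 3.22 (4.54 and 2.29) after 60 min, and was 2.32 (3.16 and 1.70) after 120 min. It rests on dim spots, with a mean signal of 53.9. With PACAP38 in Cy5 its folds from 10 min on were at least 2.29, while with PACAP38 in Cy3 they were 0.756 at 10 min and 0.838 at 15 min, so the arrays differ by more than the change from 30 to 120 min. Zfp131, another BTB/POZ protein, was at 2.06 at 60 min (2.04 and 2.07) and at 1.68 at 120 min (1.67 and 1.68).

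The bases before the starts of Zfp612 (chr19:54963193-54963442, plus strand) and Zbtb33 (chrX:121828835-121829084, plus strand, both GRCr8) are shown as those of higher genes that hold the core of the cAMP response element, 2 times each, and the ETS letters, in capitals.
Zfp612: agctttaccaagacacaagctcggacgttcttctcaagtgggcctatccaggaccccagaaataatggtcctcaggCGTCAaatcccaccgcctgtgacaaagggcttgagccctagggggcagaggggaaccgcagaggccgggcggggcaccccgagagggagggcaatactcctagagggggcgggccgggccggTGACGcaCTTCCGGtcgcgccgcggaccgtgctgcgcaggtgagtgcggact
Zbtb33: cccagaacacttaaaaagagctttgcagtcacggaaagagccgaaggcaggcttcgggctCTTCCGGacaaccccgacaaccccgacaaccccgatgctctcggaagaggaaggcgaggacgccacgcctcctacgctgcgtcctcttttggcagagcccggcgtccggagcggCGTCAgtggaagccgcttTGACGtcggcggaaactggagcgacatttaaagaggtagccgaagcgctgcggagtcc

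**Figure D4:**
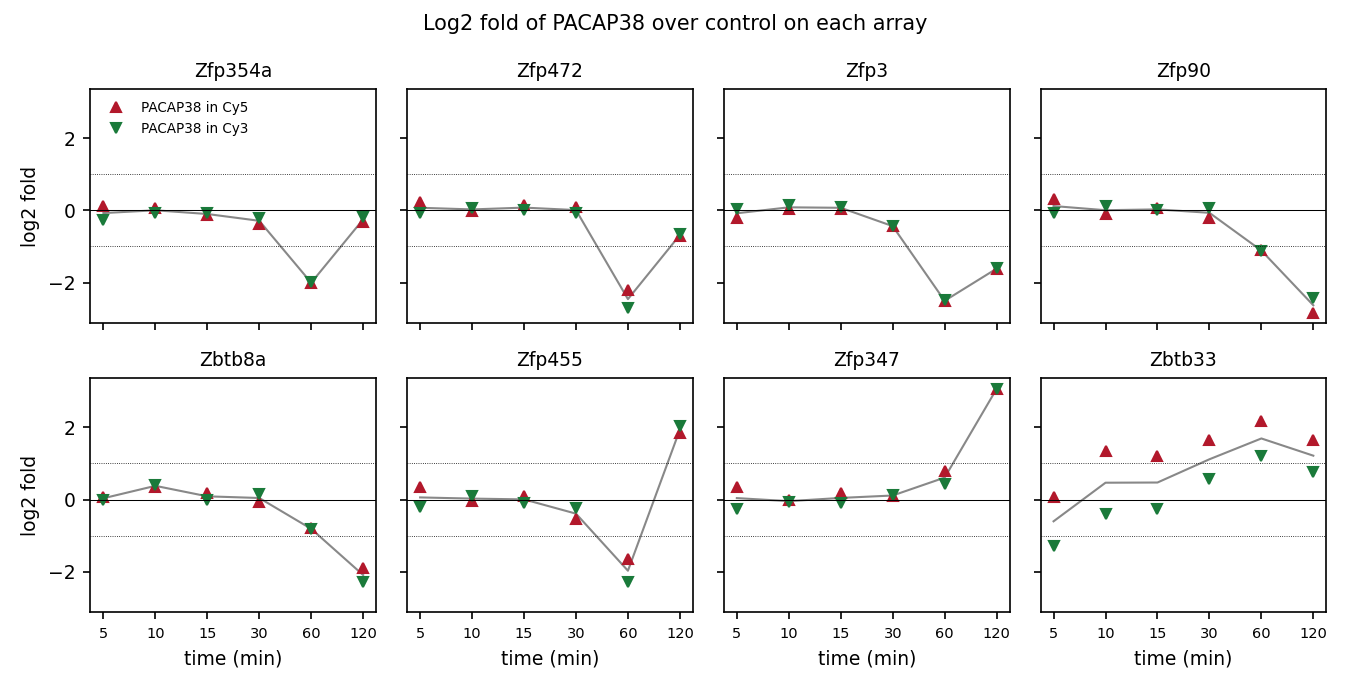
Log2 fold of PACAP38 over control (y axis) by time in minutes (x axis, time points evenly spaced) for 8 zinc finger genes, with a point per array (red, PACAP38 in Cy5; green, in Cy3), a line through the mean of both, and dotted lines at 2-fold. Zfp354a and Zfp472 are low at 60 min, Zfp3 less so at 120 min, Zfp90 and Zbtb8a lowest at 120 min, Zfp455 crosses 0, and the arrays of Zbtb33 lie apart at each time.

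The promoters were searched for letters, on both strands, over 250 bases before to 50 after the annotated start. RefSeq gave a promoter for 240 of the 289 genes, 22 of the 26 lower at 60 min, 21 of the 28 lower at 120 min and 6 of the 7 higher at either. The core of the cAMP response element (TGACG) was in 2 of the 22 genes lower at 60 min (9.09%), in 47 of the 160 measured there (29.4%) and in 22.0% of all 27457 promoters. At 120 min it was in 2 of 21 lower genes (9.52%). Split the other way, 2 of 47 measured genes with these letters (4.26%) and 20 of 113 without (17.7%) were lower at 60 min, but the median log2 folds of both sets were -0.49 and -0.44. The split was therefore one of counted genes and was not seen in the medians.

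The full element (TGACGTCA, which contains the core) was in 0 of the lower genes, in 0.625% of the zinc finger genes measured at 60 min and in 1.91% of all promoters. The ETS letters (CCGGAAG) were in 4 of the 22 genes lower at 60 min (18.2%), 4 of the 6 higher genes, 26.9% of the measured zinc finger genes and 9.22% of all promoters. Letters for AP-1 (TGANTCA) were in 1 of the 22 genes, against 5.62% of the measured zinc finger genes and 7.33% of all promoters. Those for Egr (GCGNGGGCG) were in 2, against 6.88 and 5.29%, those for NRF1 in 0, against 3.75 and 0.932%, and a TATA box (TATAAA) in 2, against 10 and 14.3%. CCAAT was in 10 of the 22 (45.5%), among them Zfp472, against 39.4% of the measured zinc finger genes and 37.7% of all promoters, and the letters of YY1 in 1 (4.55%), against 5.0 and 1.93%. Promoters of the measured zinc finger genes held a median of 18.0 CpG and those of the genes lower at 60 min 12.5, against 7.00 over all promoters. A match is a description of these letters, not of binding.

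Zinc finger genes share the coding sequence of their fingers, so the probes were compared. On the brightest probes, each 60 bases long, the codon pattern of the conserved linker that joins fingers was found in 2 of 289, against 18 of all 41012 probes, and in none of the 26 and 28 lower genes. At the best ungapped match to the probe of any other member, with 40 or more bases overlapping, a probe shared a median of 28 bases, and no lower gene's probe shared more than 39. Cross-hybridization to transcripts was not tested.

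Where a gene had several probes, they mostly pointed the same way. At 60 min 57 genes had 2 or more measured probes, and 48 of them had all measured probes on the same side of 1, against 41 of 52 at 120 min. Since 87.6% and 76.1% of the measured zinc finger genes had folds below 1 at these times, many unrelated probes of the group would share a side too. The same share over other genes is not given here. At 120 min the probes of Zfp746 lay apart, at 0.575 on the brightest and 1.31 on a dim one (2.24 and 0.768), and so did those of Zfp207, at 0.773 and 1.45 (1.43 and 1.47). A dimmer probe of Zfp84 was at 0.696 at 120 min (0.773 and 0.626) and was not counted there. In 11 of 11 genes with a counted probe the probes were on the same side, at 60 min and at 120 min. Some genes were counted on a dimmer probe but not on the brightest one. Zbtb1, needed for lymphocyte development, was at 0.426 on its brightest probe at 60 min (0.572 and 0.318) but at 0.224 on the other (0.110 and 0.455), and at 120 min at 0.343 (0.525 and 0.224) and 0.117 (0.131 and 0.104). Zfp217, an oncogene in breast tumours, was at 0.473 (0.540 and 0.414) and 0.436 (0.445 and 0.427) at 60 min. Zfp870 was at 0.689 on its brightest probe and at 0.389 on another (0.427 and 0.354) at 60 min, and Zbtb21 at 1.89 and 3.16 at 120 min. Zfp707 was the one gene with higher dimmer probes at 60 min, at 2.13 (2.14 and 2.12) and 2.25 (2.4 and 2.1), beside 1.99 on the brightest. Zfp707 and the genes of the clusters and printed sequences were singled out after their values were seen.

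The zinc finger genes lie on many chromosomes, and their decrease was seen on most. On chromosome 1, which holds 68 of the 289, all 43 measured genes were below 0 at 60 min and 9 were counted as lower, with a median fold of 0.631. Among all 1780 measured genes of chromosome 1 1.46% were lower and the median log2 fold was -0.03. At 120 min 36 of 42 zinc finger genes on chromosome 1 were below 0, with a median fold of 0.685. The median log2 fold of all measured genes of that chromosome was then -0.05. On chromosome 10 4 of 19 measured genes were lower at 60 min and 4 of 17 at 120 min, on chromosome 7 3 of 14 and 1 of 14, and on chromosome 3 1 of 11 and 3 of 11. Over all genes of these chromosomes the shares at 60 and 120 min were 0.969 and 4.01% on chromosome 10, 0.976 and 3.62% on chromosome 7, and 1.27 and 3.92% on chromosome 3, so that counts of 1 stand for little. On chromosome 8 0 of 10 and 0 of 8 were lower, against 0.743 and 3.35% of all genes there, with median folds of 0.790 and 0.657.

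**Figure D5:**
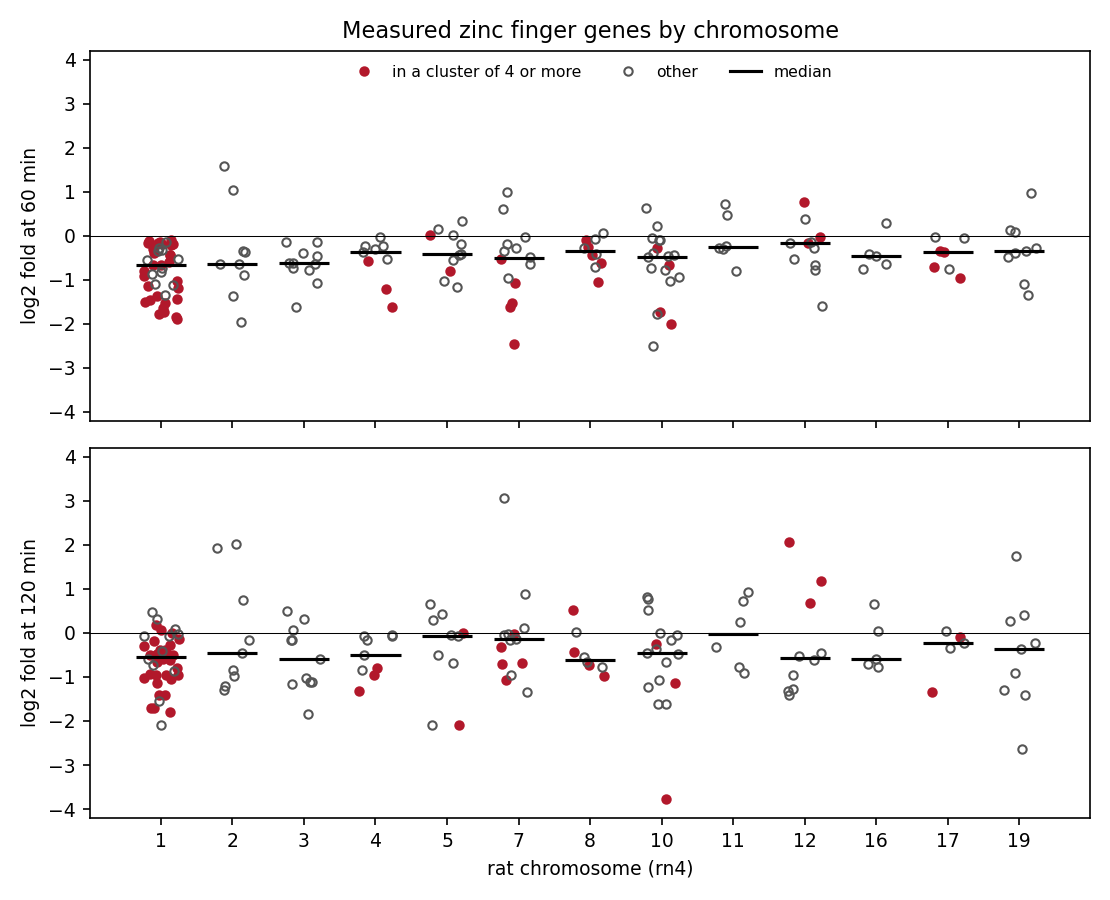
Log2 fold of PACAP38 over control at 60 min (top) and 120 min (bottom) of each measured zinc finger gene (y axis) by rat chromosome (x axis), for chromosomes with at least 5 measured members at 60 min; filled points lie in clusters of 4 or more members, open points do not, and bars are medians. All 43 points of chromosome 1 lie below 0 at 60 min.

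Members on 1 chromosome with gaps under 500 kb and at least 4 in a row were taken as a cluster, which gave 15 clusters with 84 genes. In clusters 15 of 57 measured genes (26.3%) were lower at 60 min, with a median log2 fold of -0.665, and outside them 10 of 132 (7.58%), with -0.394. At 120 min the shares were 9 of 52 (17.3%) and 19 of 128 (14.8%), and the medians -0.634 and -0.387. Neighbouring genes may not be independent, and the difference was not tested.

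The cluster on chromosome 7 from 13478408 to 13840100 (Zfp799, Zfp870, Zfp472, Zfp952, Zfp763 and Zfp563) had 3 of 5 measured genes lower at 60 min and 0 of 5 at 120 min. Its median fold went from 0.347 to 0.623. Zfp563 went from 0.347 (0.367 and 0.327) to 0.616 (0.603 and 0.630), and Zfp870 was at 0.689 (0.732 and 0.649) and 0.982 (1.03 and 0.938). Zfp799 was at 0.475 (0.440 and 0.513) and 0.481 (0.390 and 0.593), so 1 of the 5 lay as low at 120 min as at 60 min.

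The cluster on chromosome 10 from 36386881 to 36665616 holds Zfp354c, Zfp879, Znf454 and Zfp354a, which differed among themselves. As given above, Zfp354a had returned at 120 min while Zfp879 was lower still. Zfp354c was at 0.629 at 60 min (0.623 and 0.634) and at 0.457 at 120 min (0.410 and 0.510).

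The cluster on chromosome 12 from 9641055 to 9730075 holds Zkscan5 and 3 other genes. Of these, Zfp655 was at 0.988 at 60 min (0.936 and 1.04) and at 2.25 at 120 min (1.90 and 2.66), and Zfp394 at 0.886 (0.780 and 1.01) and 1.59 (1.66 and 1.52). Zfp655 and Zfp394 did not pass the limits. Zscan25 was not measured at 60 or 120 min.

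By prefix, 24 of 157 measured Zfp genes (15.3%) were lower at 60 min and 22 of 153 (14.4%) at 120 min. Of the 25 measured Zbtb genes 2 were lower at 60 min and 4 at 120 min, with median log2 folds of -0.494 and -0.502, where 0.916% and 3.81% of all measured genes were lower. The Zbtb genes held 2 of the 3 genes higher at 60 min, where 1.78% of all genes were. The other prefixes had 2 to 4 measured genes each.

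Members with a known role were mostly short of the limits. Zbtb17 (Miz1, a partner of Myc) was at 0.875 at 60 min (0.937 and 0.817) and 0.946 at 120 min (1.1 and 0.810). Zbtb7a (LRF), a regulator of blood cell fate, was at 0.710 (0.715 and 0.705) and 0.515 (0.522 and 0.508). Zbtb18 (RP58), a repressor in cortical neurons, was at 1.05 (0.914 and 1.22) and 0.651 (0.610 and 0.694). Zbtb20, a transcriptional repressor needed for hippocampal development, was at 1.64 (1.96 and 1.37) and 1.65 (2.14 and 1.28). Zfp110 (NRIF), which binds the neurotrophin receptor p75, was at 0.893 (0.655 and 1.22) and 0.717 (0.399 and 1.29), with the arrays on either side of 1.

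Zbtb38, a methyl-CpG binding relative of Kaiso, was at 0.609 at 60 min (0.676 and 0.548) and at 0.633 at 120 min (0.708 and 0.566). Zbtb43 went from 0.644 (0.603 and 0.687) to 1.41 (1.43 and 1.39), crossing 1 on both arrays without being counted. Zfp592 likewise was at 0.686 (0.744 and 0.632) and 1.40 (1.75 and 1.11). Zfp57, which maintains imprints, was at 0.801 (0.871 and 0.736) and 0.706 (0.642 and 0.776).

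The brightest members moved little at 60 min, with 1 exception. Zfp91, a ubiquitin ligase, was at 0.904 at 60 min (0.886 and 0.923) and at 0.551 at 120 min (0.512 and 0.593). Zfp207 (BuGZ), a spindle protein, was at 0.966 (0.955 and 0.977) and 0.773 (0.764 and 0.781). Zfp706 and Zfp598, the latter a ligase that acts at collided ribosomes, lay between 0.916 and 0.979 at both times. Zfp830 was the exception, at 0.486 at 60 min (0.546 and 0.433) and 0.729 at 120 min (0.790 and 0.672), short of the limit on 1 array.

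The corepressors that KRAB proteins recruit were set beside them. Of 13 genes of the KRAB corepressor complex and heterochromatin, all measured, 0 were counted at 60 min and 1, Atf7ip, a partner of Setdb1, at 120 min, at 0.397 (0.449 and 0.351). Over all measured genes 0.916% were lower at 60 min and 3.81% at 120 min, so counts of 0 and 1 stand for little. Trim28 was at 0.939 at 60 min (0.904 and 0.976) and at 0.928 at 120 min (0.996 and 0.865), and Setdb1 at 0.716 (0.678 and 0.756) and 0.460 (0.392 and 0.540). The median log2 fold of the list was -0.053 at 60 min and -0.247 at 120 min.

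C2H2 genes whose names lack the prefixes were also read. Of 43 such genes, among them Sp1, Ctcf and Rest, 17 were measured at 60 min, with 1 lower, Prdm2 at 0.486 (0.498 and 0.475), and a median log2 fold of -0.19. At 120 min 0 of 17 were counted, 17 of 17 lay below 0, where 53.9% of all measured genes did, and the median was -0.557. Among genes with other zinc binding domains (names beginning with Rnf, Trim, Zmym, Zswim and the like), 3 of 160 measured were lower and 3 higher at 60 min, and 14 of 154 (9.09%) lower and 6 higher at 120 min, with medians of -0.099 and -0.31. The counts of higher genes in that list lay near the 1.78% and 4.14% of all genes. For lower genes the shares over all measured genes were 0.916% at 60 min and 3.81% at 120 min. At 60 min the zinc finger genes by prefix therefore had a lower median than any of these 3 lists, and at 120 min the C2H2 genes without the prefixes had the lowest. The differences between lists were not tested.

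Time was tested across all 6 time points with limma, in which the spread between time points stands for the error. A slope of the log2 fold on log2 time had a Benjamini-Hochberg adjusted p below 0.05 for 0 falling and 1 rising zinc finger genes of 198, against 0.203% of all 20213 probes falling and 0.524% rising. The rising gene was Zbtb10, whose control RNA was never above background and neither of whose RNAs was so up to 30 min, so its slope rests on values near the floor and is not given. At an unadjusted p below 0.05, 93 zinc finger genes had a falling and 10 a rising slope, of 3438 and 2372 probes in all. With time in minutes in place of log2 time, 65 had a falling and 8 a rising slope at an adjusted p below 0.05, of 3265 and 2068 probes in all. With slide as a block, which leaves only the change within each pair of times, 0 had either (1 and 1 unadjusted, of 525 and 419 probes). Each slide holds 2 neighbouring time points, with 60 and 120 min on the same one, so slide and early or late time cannot be told apart.

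The second fit compared 60 min with the other 5 time points. No probe of 20213 had a limma adjusted p below 0.05, 0% lower and 0% higher. At an unadjusted p below 0.05, 48 zinc finger genes were lower and 0 higher, of 330 and 187 probes in all. With slide as a block 0 passed again, and 39 were lower and 34 higher unadjusted, of 1606 and 2684 probes. In that fit 60 min is set against 120 min of the same slide alone, so a decrease shared by both times could not appear in it. The smallest p among them was that of Zfp354a, at -1.86 on the log2 scale (SE 0.16, unadjusted p = 2.65e-05, limma adjusted p = 0.268), followed by Zfp472 at -2.36 (SE 0.32, limma adjusted p = 0.473). With the 120 min arrays left out, so that 60 min stood against 5 to 30 min, 24 zinc finger genes passed as lower and 0 as higher, of 110 and 124 probes in all. With any of the other time points left out 0 passed.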

How the data were processed

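PACAP38 and control RNA of PC12 cells was measured at 6 time points on 12 arrays. The authors extracted the intensity values with Agilent Feature Extraction (11.0.1.1, per the submitters' processing notes, while the file headers and the study's methods each name another version); as deposited they are background-subtracted and LOWESS dye-normalized. The deposited table of the series holds the log10 of the processed Cy5 over Cy3 intensities, not turned for the dye exchange. Each spot also has a p-value of its log ratio, as deposited.

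The ratio of PACAP38 to control was formed here from the processed intensities with the sign set by the dye labels. Control spots and the 197 to 267 outlier spots per array were left out, and spots of 1 probe were averaged. The mean signal of a probe is its processed intensity over both channels and all arrays. Names matched RefSeq (GRCr8) for 287 of 289 genes, and probe positions are those of the files (rn4). Named genes were the 10 with the smallest counted fold at 60 and at 120 min, all counted as higher, any counted up to 30 min (none were), the 6 with the largest gain from 60 to 120 min among genes lower at 60 min, the 5 brightest measured at all times, and a list of members with a known role, of which examples are given. The members and lists were chosen with earlier results of these data known. The time fits used limma 3.58.1 in R 4.3.3 and were tested on simulated data; other steps used Python 3.11.15 with pandas 2.3.3. Alternatives were other scalings, 1 array alone, other limits and filters, probes in place of genes, slide as a block, time in minutes and leaving out each time point. Nothing says whether the pooled samples came from separate cultures. The proteome was not analysed here, and a list of corepressors of BTB/POZ proteins is not reported here.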

Additional observations from a re-analysis of the deposited data

Results flagged for a closer look

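Zfp455 is listed because both arrays of 60 min and both arrays of 120 min lay on opposite sides of the control, with a fold of 0.255 at 60 min (0.318 with PACAP38 in Cy5 and 0.205 in Cy3) and of 3.82 at 120 min (3.58 and 4.07). The difference between these time points was not tested, since each holds 1 pair of pools.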

How the results depend on the processing

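The deposited table holds ratios of the same processed intensities, so its counts could not differ and are no check. Dropping the limit on the spot p-value moved no count by over 1.5 times. The log2 folds of the counted genes kept their sign under both normexp settings. Of the named genes that were not counted, Zfp706 at 60 min went from a fold of 0.979 to 1.01 (loess) and 1.03 (median centring), and with median centring Zfp207 at 60 min went from 0.966 to 1.02, Zfp423 at 120 min from 1.2 to 0.997 and Zfp703 at 120 min from 1.03 to 0.964. With normexp and loess the median log2 fold was -0.014 at 30 min, -0.167 at 60 min and -0.177 at 120 min, 6 genes were lower and 0 higher at 60 min, 1 lower and 3 higher at 120 min, and 4 had returned, 1 partly, 1 was lower at both times, 0 at 120 min only, and 3 had risen by 120 min. With median centring the medians were 0.063 at 10, 0.091 at 15, -0.038 at 30, -0.168 at 60 and -0.287 at 120 min, 2 genes were lower and 0 higher at 60 min, 1 lower and 1 higher at 120 min, and the classes held 0, 2, 0, 1 and 1 genes. The offset of 50 shrinks folds of dim spots by construction, and 30 of the 198 measured genes had a mean signal under 50.

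For 1 array alone, the 1.5-fold limit and the other filters, the shares of all genes are not given. The counts under these settings therefore do not set the group against all genes. With the array of PACAP38 in Cy5 alone 3, 4, 4 and 2 genes were counted from 5 to 30 min, the medians were 0.004 at 10, 0.042 at 15 and -0.091 at 30 min, 44 genes were lower and 10 higher at 120 min, and 14 had returned, 3 partly, 30 were lower late and 10 had risen. With Cy3 alone 4, 6, 1 and 1 were counted, the medians were -0.025 at 15, -0.098 at 30, -0.519 at 60 and -0.482 at 120 min, 51 were lower at 60 min, 8 higher at 120 min, and 15 had returned, 19 were lower at both times and 8 had risen. A limit of 1.5-fold gave 1 gene at 30 min, 56 lower and 6 higher at 60 min, 58 and 12 at 120 min, with 12 returned, 33 lower at both times and 12 risen. With both RNAs required above background the medians were -0.073, -0.409 and -0.451 at 30, 60 and 120 min, with 1 gene higher at 60 min, and with no filter -0.062, -0.363 and -0.287. Probes in place of genes gave -0.071, -0.399 and -0.409, 6 higher at 60 min (2.29%, against 1.79% of all probes), 8 at 120 min (3.25%, against 4.24%), 11 returned and 8 risen.

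The single gene with a rising slope was lost (0) under both normexp settings and with slide as a block. Time in minutes gave 65 falling and 8 rising slopes, of 3265 and 2068 over 20213 probes, and the 170 genes measured at all 6 time points 7 falling and 1 rising, of 235 and 309 over 15886 probes; the 1 cannot be Zbtb10. Leaving out 1 time point gave 0 to 2 falling slopes, with the 2 only without 5 min, 0 to 1 rising, with 1 only without 5 min, and 0 to 24 genes lower at 60 min than at other times, with the 24 only without 120 min. Signal over background and 1 pair of pools per time point limit all of these values. No paired analysis was possible because paired arrays carry identical pools and the labels number no replicates. Except where a construction is named, the cause was not tested.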
